A study of Mus musculus with 3 samples.

Results

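Genes of the small GTPases and of the membrane traffic machinery were followed in neural retina of Rp1-/- mice. Rp1 protein binds the microtubules that run through the outer segment of photoreceptors. The members were taken by gene symbol alone: Rab genes other than Rab3, Arf, Arl, Rap1, Rap2, Rac, Rhoa, Rhob, Rhoc and Rhog, Ran and Cdc42, the Sec genes, the COPI coat, Vps and Snx genes, the adaptors AP-1, AP-2 and AP-3, and clathrin. The rule itself uses names and no measured value, though earlier results of these data were known when it was set. In all, 188 probe sets of 141 genes were found among the 10833 probe sets, of 8251 genes, with a single gene symbol. A probe set is the group of short probes that stands for 1 transcript on the array.

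The study consisted of 3 Affymetrix U74Av2 arrays, which all belonged to 1 group. Each was hybridised with retinal RNA pooled from 3 to 4 Rp1-/- mice at postnatal day 10, on a background mixed from 129/SvEv and C57BL/6, with dissection between 1 and 2 pm. No control genotype was analysed here, so pools of mutant retina are compared with each other. They are numbered 1 to 3 in accession order. The title of the array of pool 1 does not carry the gene's name as the other titles do, while its description gives the same genotype. The descriptions do not say whether pools shared animals, litters or days, so the spread given here is that between these RNA samples and may be partly technical. The targeted gene was not analysed here, and its loss was not checked from these arrays.

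Small GTPases are switches that cycle between a GTP-bound and a GDP-bound state. Rab proteins give each compartment its identity and recruit tethers and motors, Arf and Arl proteins recruit coats and lipid-modified cargo, Rac, Rhoa and Cdc42 proteins act on actin, and Ran drives transport through the nuclear pore. Coats bud the vesicles: COPII leaves the endoplasmic reticulum, COPI works within the Golgi and back to the endoplasmic reticulum, and clathrin with its adaptors serves the trans-Golgi network, endosomes and plasma membrane. In photoreceptors this machinery carries membrane proteins to the base of the cilium, from which the outer segment grows. Roles of Rab8 and Arf4 in these carriers are known mainly from frog retina.

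Signals are in scaled intensity units, and control probe sets without a target in mouse gave each array its own background floor (100.5, 124.8 and 120.4 units in pools 1, 2 and 3). Probe sets whose mean signal exceeded the mean floor are called measured. Of the 188 probe sets, 167 were measured, from 129 genes, and 157 lay above the floor in all pools. The other 21 probe sets were below that limit. They included every probe set of Rab17, Rab20, Rab35, Rap1b, Sec24b, Snx27, Vps13c, Vps37a, Ap1s2 and Ap2s1, of the pseudogene Rhoay-ps3, and of Sec1, which in mouse names a fucosyltransferase and not a fusion factor. The remaining 8 were second probe sets of genes measured by another one. A low signal may mean weak probes as well as little RNA, so signals of different probe sets do not rank the amounts of their RNAs. Mean signal served only to choose which genes to name.

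The arrays were of like scale and held markers of the labelled tissue. Trimmed means were 500.25 to 500.26, and the 8 photoreceptor markers checked (Crx, Nrl, Neurod1, Sag, Pdc, Pde6g, Gnat1 and Rom1) were all measured, with summed signals of 75277.8, 93030.4 and 86984.9 in pools 1, 2 and 3. Of these 8, 6 were highest in pool 2, while Crx was highest in pool 1 and Neurod1 in pool 3. Lens genes stood apart: all 10 checked were highest in pool 3 and lowest in pool 2, with summed signals of 70925.8, 18819.8 and 160421.7. Blood markers, all 3 of which were highest in pool 1, summed to 20541.0, 12671.7 and 10545.7. The 4 endothelial markers were highest in pool 3, at 1386.9, 1484.4 and 1923.1. In pooled tissue, fewer cells of a type and less RNA per cell cannot be told apart.

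No member passed the test of spread between pools. It asked, over all 8327 measured probe sets, whether the variance of log2 signal exceeded the trend with intensity (limma, Benjamini-Hochberg adjustment, threshold 0.05). It called 0 of 167 member probe sets, against 18 of all measured ones (0.216%). Among the 18 were the lens genes Cryaa, Cryba1, Crybb2, Crygb, Crygc, Crygd and Crygs (limma, adjusted p from 0.0003 to 0.0041). At an unadjusted p under 0.05 the test gave 7 members, 4.19% of them, against 5.34% of all. The lowest adjusted p among the members was 0.13, for Rab33b (limma). The median SD of log2 signal was 0.246 for the members and 0.268 for all measured probe sets. In 4 equal bins of mean signal, the medians of members and of all were 0.345 and 0.372, 0.315 and 0.300, 0.233 and 0.236, and 0.217 and 0.207, from the lowest bin to the highest. In simulated data the test called 6 of 50 probe sets changed 2-fold in 1 pool and 43 of 50 changed 4-fold. The simulation had a single noise level per signal bin, no floor and planted changes of up to 16-fold. The real arrays differ in these points, so its counts may overstate what the test finds here. Rab33b was not called at 6.23-fold or more, so large differences could go uncalled as well as moderate ones.

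**Figure D1:**
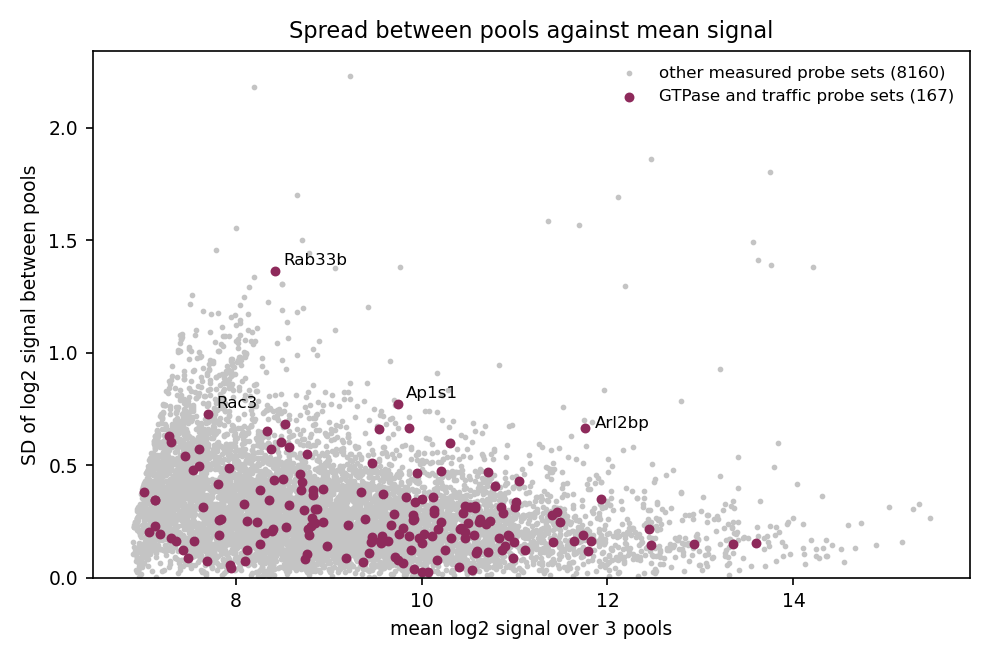
SD of log2 signal between the 3 pools (y axis) against mean log2 signal over the pools (x axis), 1 point per measured probe set, with the 167 members in colour and all others in grey. The Rab33b probe set, with an SD of 1.36, is the highest of the members.

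Fold differences were about as common among the members as on the array. Over 2-fold apart were 6 members between pools 1 and 2 (3.59%, against 6.24% of all measured probe sets), 10 between pools 1 and 3 (5.99% against 6.92%) and 9 between pools 2 and 3 (5.39% against 5.1%). In at least 1 pair, 18 members (10.8%) passed this limit, against 13.2% of all. On the log2 scale the members' median difference was 0.01 between pools 1 and 2 (the first less the second), 0.00 between pools 1 and 3 and -0.03 between pools 2 and 3. Over all measured probe sets it was -0.01, -0.01 and 0.01. Highest in pool 1 were 58 members, in pool 2 54 and in pool 3 55, beside 34.1%, 33.7% and 32.2% of all measured probe sets for the 3 pools.

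**Figure D2:**
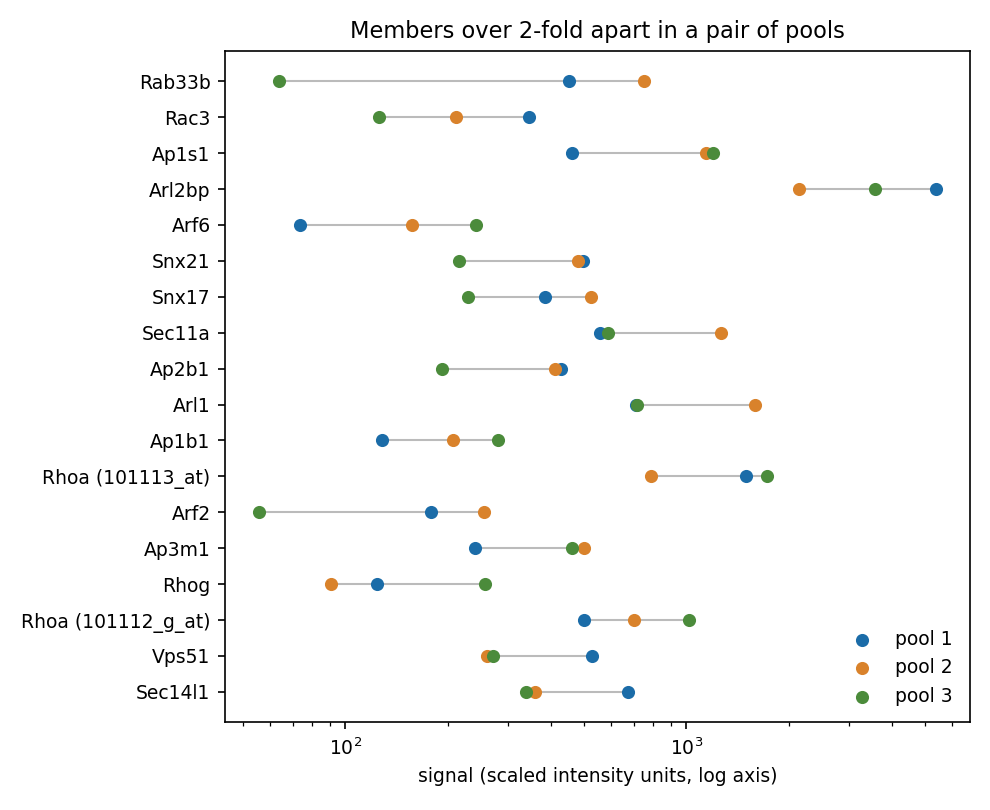
Signal in each pool (x axis, scaled intensity units, log axis) of the 18 member probe sets that lay over 2-fold apart in a pair of pools with lower signals raised to the floor. Points are single arrays drawn at their deposited signal. Arl1 and Sec11a are high in pool 2 alone, Ap1s1 is low in pool 1 alone, and Rab33b, Snx21 and Ap2b1 are low in pool 3 alone.

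The 17 genes of these 18 probe sets came from most classes. Of them 11 had a single measured probe set, so no second reading was at hand. The other 6 were Rab33b, Arf6, Snx17, Ap1b1, Rhoa and Sec14l1. Rhoa alone had 2 probe sets over the limit, and these placed the lowest pool differently.

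The upstream sequences of the members were described by their base composition, which the choice by name did not use. Of 141 genes, 118 were found in RefSeq's promoter table (GRCm38.p6) and 101 had a single promoter there. The 250 bases before the start of these 101 had a median GC content of 62.8% and a median CpG ratio (observed over expected) of 0.77. The 5264 single promoters of genes on the array had 59.2% and 0.69, and all 22862 single promoters there 52.0% and 0.36. The GC box GGGCGG, searched on both strands like the other motifs, stood in 72 of 101 (71.3%), against 55.5% of promoters of genes on the array and 32.4% of all. TATAAA stood in 2 members (1.98% against 9.88% and 13.6%), and the CRX core TAATCC in 1 (0.99% against 5.22% and 6.58%). CCAAT was found in 36.6% of members, 36.6% of genes on the array and 34.7% of all. The E-box CACGTG was found in 13.9%, 8.28% and 5.92%. A match is a description of these letters and not a binding site.

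Promoters are shown of 4 members whose signals are described below: Arl3, a GTPase of photoreceptor cargo release, Arl1, Rab10 and Copg1. Arl3, Arl1 and Rab10 had their highest signal in pool 2, and Copg1 was lowest there by both of its probe sets. Each is the 250 bases before the start in the direction of the gene, 5′ to 3′, with any of the motifs above in capitals. They lie at chr19:46573183-46573432 (Arl3, minus strand), chr10:88731164-88731413 (Arl1, plus strand), chr12:3309970-3310219 (Rab10, minus strand) and chr6:87887690-87887939 (Copg1, plus strand) of GRCm38.p6. In Arl3 the E-box overlaps the GC box that follows it.
Arl3: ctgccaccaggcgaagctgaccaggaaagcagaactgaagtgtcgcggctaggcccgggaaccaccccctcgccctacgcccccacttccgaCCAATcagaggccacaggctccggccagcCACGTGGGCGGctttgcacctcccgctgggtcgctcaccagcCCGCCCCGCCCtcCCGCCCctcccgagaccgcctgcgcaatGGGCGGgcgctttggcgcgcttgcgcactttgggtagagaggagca
Arl1: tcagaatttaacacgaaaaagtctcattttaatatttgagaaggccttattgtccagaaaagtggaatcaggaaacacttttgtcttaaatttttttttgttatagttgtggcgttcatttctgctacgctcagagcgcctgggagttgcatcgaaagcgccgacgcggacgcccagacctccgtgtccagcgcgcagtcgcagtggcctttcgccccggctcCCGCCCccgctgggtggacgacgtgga
Rab10: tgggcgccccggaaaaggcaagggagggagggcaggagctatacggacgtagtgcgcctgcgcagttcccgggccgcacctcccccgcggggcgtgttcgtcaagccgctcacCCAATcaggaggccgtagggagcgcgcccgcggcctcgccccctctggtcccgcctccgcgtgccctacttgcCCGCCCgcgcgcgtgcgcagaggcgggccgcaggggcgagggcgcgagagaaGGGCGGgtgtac
Copg1: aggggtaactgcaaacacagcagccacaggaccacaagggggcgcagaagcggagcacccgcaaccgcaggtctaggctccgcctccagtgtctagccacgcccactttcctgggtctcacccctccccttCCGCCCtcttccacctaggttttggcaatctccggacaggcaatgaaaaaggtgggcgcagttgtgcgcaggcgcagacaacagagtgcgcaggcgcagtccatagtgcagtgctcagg

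Arl3 held 5 GC boxes, 1 CCAAT and 1 E-box, Rab10 held 2 GC boxes and 1 CCAAT, and Arl1 and Copg1 held 1 GC box each. None of the 4 held TATAAA or the CRX core. Among the 4, GC content ran from 51.2% (Arl1) to 74.8% (Rab10), and the CpG ratio from 0.54 (Copg1) to 1.22 (Arl1). A GC box thus stood in all 4, beside 71.3% of members and 55.5% of promoters of genes on the array. Any link between a motif and the order of pools was not tested.

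Rab genes formed the largest class, with 44 probe sets of 34 symbols, 39 of them measured. Their median SD was 0.219 on the log2 scale, and 1 of 39 (2.56%, beside 13.2% of all measured probe sets) was over 2-fold apart in any pair. The share of all, here and for the classes below, was not matched for mean signal, with which the SD fell. Named for their high mean signal were Rab14 (3433 ± 450.5 by its brightest probe set, mean ± SD, n = 3), a Rab of Golgi and endosome traffic, Rab18 (2741 ± 295), found on the endoplasmic reticulum and lipid droplets, Rab2a (2116 ± 510), which acts between the endoplasmic reticulum and Golgi, and Rab11b (1978 ± 254) of recycling endosomes. Rab18 had 2401, 2894.2 and 2928.8 in pools 1, 2 and 3, Rab2a 1939.8, 2690.9 and 1717.3, and Rab11b 2243.6, 1952.4 and 1738.4. These 3 thus had their highest signal in different pools. Rab8a, the Rab of carriers bound for the cilium, had signals of 1327.1, 1527.9 and 1722.6 in pools 1, 2 and 3. Its highest pool exceeded its lowest by 1.30-fold (limma, adjusted p = 0.99).

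Rab33b, a Golgi Rab that takes part in autophagy, had the widest range of any member. Its f-class probe set, a class whose probes can bind related transcripts, read 451.2, 750.2 and 64 in pools 1, 2 and 3, so pool 3 lay under the floor. Against that floor, pool 2 was at least 6.23-fold higher (limma, adjusted p = 0.13). The second Rab33b probe set read 312.3, 337.3 and 273.7, with the same order and a range of only 1.23-fold, so the 2 disagree on the size. The call of the first probe set was made without pool 1, where 2 arrays remain, and under 2 other settings, with adjusted p from 0.00015 to 0.98 over the settings (limma).

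Several Rab genes read highest in pool 2, none past the test. In the Rab class 16 of 39 measured probe sets (41.0%) were highest there, beside 33.7% of all measured probe sets. In pool 1 14 of the 39 were highest, and in pool 3 9. Rab10, which serves exocytosis, had 738.1, 1396.8 and 943.6 by one probe set and 801.1, 1262.9 and 908.6 by the other, so both gave the same order. Rab24, linked to autophagy, had 989.8, 1735.8 and 973.1, 1.78-fold from lowest to highest pool (limma, adjusted p = 0.98). Rab28, mutated in human cone-rod dystrophy, had 1199.3, 1844.6 and 1423.1, a range of 1.54-fold. In pool 2, 6 of 8 photoreceptor markers were also highest and all 10 lens markers lowest, and their part in the Rab signals was not tested.

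Among the endosomal Rabs, Rab5a and Rab5c varied little and Rab5b and Rab9 more. Rab5a, of early endosomes, had 1612.9, 1840.3 and 1600.8, and Rab5c 812, 901.4 and 800.3. Rab5b read 417.5, 392.8 and 241, lowest in pool 3, with a range of 1.73-fold. Rab7, of late endosomes and lysosomes, had 1590.6, 1400.5 and 1614 by one probe set and 867, 513.7 and 625 by the other. Both put pool 2 lowest, while they differed on the highest pool. Rab9, which returns cargo from late endosomes, had 997.9, 1098 and 685.9, with pool 3 lowest.

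Recycling and Golgi Rabs showed how far probe sets of a gene can part. Rab11a, which delivers vesicles to the ciliary base, was highest in pool 3 by one probe set (1339.3, 1767.5 and 2364.5), whereas the other was highest in pool 2 (366.5, 604.3 and 430.4). Rab6a, of the Golgi, had 2338, 1786.1 and 1518.7 by one and 981.3, 983.7 and 937.1 by the other, so a 1.54-fold range stood beside one of 1.05-fold. All 3 probe sets of Rab14 agreed, with pool 1 highest and pool 2 lowest: 3869.5, 2969.8 and 3460.4 for the brightest, and ranges of 1.55-fold and 1.25-fold for the others.

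Rab1a, of the first step from the endoplasmic reticulum, was the steadiest Rab at 1024.1, 1018 and 1050.8, an SD of 0.024 on the log2 scale. Its second probe set was under the floor on all arrays, as was that of Rab2a. Rab4a of fast recycling had 1005.6, 854.8 and 678.2 and its relative Rab4b 971, 1011.7 and 858. Rab25, an epithelial relative of Rab11, read 309.7, 304 and 518.9, with pool 3 highest. Rab34, a Rab of cilium formation, had 801.7, 558.5 and 678.3. Rab23, which limits hedgehog signalling, passed the floor only in pool 1 (185.2, 90.1 and 72).

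The other measured Rab symbols ranged less than 2-fold with signals under the floor raised to it, and some were near the floor. Rab12 had 1277.8, 1253 and 879.4, while Rab21 (403.2, 447.9 and 442) and Rab33a (298.8, 289.5 and 372.9) were closer. The probe sets of Rab31 (191.3, 163.1 and 166.4, and 150.1, 158.2 and 186.3) were near the floor, and Rab8b lay under it in pool 2 (157.4, 69.8 and 157.9). The rule also took in symbols that are not Rab proteins: the opposite-strand transcripts Rab10os (401.9, 465.5 and 438.4) and Rab26os (252.4, 196.5 and 163), Rab5if, named for its binding to Rab5 (1220.8, 1618.7 and 1276.4), and the Rab11 effector Rab11fip5 (290.7, 262 and 272.4). Rab27a had no member probe set.

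Arf and Arl genes were all measured, with 15 probe sets of 11 symbols and a median SD of 0.25. Of these probe sets 4 (26.7%, beside 13.2% of all measured probe sets) were over 2-fold apart in a pair of pools. They were those of Arl1, Arl2bp, Arf2 and Arf6, and none passed the test. Arf1, which recruits COPI and the clathrin adaptors at the Golgi, had 11981.8, 11399.9 and 14037.6 (mean 12473 ± 1386). Arf4, known from frog to load cargo into such carriers, had 1665.5, 1585.8 and 1414.5, and Arf5 had 2205.3, 1798 and 2130.6. The ranges of these 3 were between 1.18-fold and 1.23-fold.

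The Arl proteins with a place in photoreceptors differed in spread. Arl3, which releases lipid-modified cargo from Unc119 and Pde6d in the cilium, had 1287.8, 1788.5 and 1668.1, 1.39-fold from lowest to highest pool (limma, adjusted p = 0.99). Arl2, its close relative, had 627.2, 693 and 664.7. Arl2bp, a binding partner of both that is mutated in a human retinitis pigmentosa, had 5388.3, 2144.3 and 3567.8. Pool 1 thus exceeded pool 2 by 2.51-fold, with pool 3 between them (limma, adjusted p = 0.56, and 0.084 to 0.98 over the settings tried). So Arl2bp and the GTPases it binds did not share an order: Arl3 and Arl2 were lowest in pool 1, where Arl2bp was highest. Arl6 had no member probe set.

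Arl1, which recruits tethers to the trans-Golgi, stood out in pool 2 alone. It read 712.8, 1591.2 and 716.9, a 2.23-fold range in which pools 1 and 3 were nearly equal (limma, adjusted p = 0.65). Arf6, of the plasma membrane and endosomes, lay under the floor in pool 1 by both probe sets (73.5, 156.4 and 241.2, and 68, 123.8 and 170.4). Both gave pool 3 as highest, at least 2.40-fold and at least 1.70-fold above pool 1. Arf2 was under the floor in pool 3 (178.3, 254.6 and 55.8). The 3 probe sets of Arf3, a Golgi Arf, split: 1876.3, 1209.2 and 1566.5 and 832.9, 663 and 762.2 had pool 1 highest, whereas 309.5, 399.8 and 232.6 had pool 2 highest. Arl14ep, an Arl14 partner, had 851, 883.1 and 1083 by one probe set and 127.3, 156.9 and 120 by the other.

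The genes of Rac, Rhoa to Rhoc, Rhog and Cdc42 had 12 probe sets, 11 of them measured, with a median SD of 0.253. Of the 11, 4 (36.4%, beside 13.2% of all measured probe sets) were over 2-fold apart in a pair of pools. They belonged to Rac3, Rhoa and Rhog, and none passed the test. Rac1, which drives actin branching at the cell edge, had 6116.5, 5044 and 5898.1 (mean 5686 ± 567). Cdc42, a regulator of polarity and filopodia, had 1279.5, 1349.7 and 1758.5. Neither passed the test (limma, adjusted p of 0.99 for both), and their ranges were 1.21-fold and 1.37-fold. Rac3, a neuronal Rac, read 344.6, 211.2 and 125.5, a 2.75-fold range close to the floor in pool 3. Rac2, of blood cells, had the opposite order at 385.7, 458.3 and 588.7, and the part of any cell type in it was not tested.

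Rhoa, which acts on stress fibres and contraction, gave 3 readings. The first probe set had 1493.6, 788.2 and 1723.3 (limma, adjusted p = 0.76), the second, of the g class, 499.5, 703.7 and 1015.6, and another 303.6, 250.5 and 353.6. All put pool 3 highest. The g-class probe set put pool 1 lowest and the others pool 2. Rhoc differed in order between its probe sets (1402.3, 1964.2 and 1802.8, and 699, 581.9 and 504.4). Rhob, of endosomes, had 1419.6, 1635 and 1235.7. Rhog, which acts upstream of Rac, was under the floor in pool 2, at 123.9, 90.8 and 256.4, with pool 3 at least 2.05-fold above pool 2.

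Ran and the Rap genes showed no range over 2-fold. Ran, which gives nuclear transport its direction, had 7117.7, 7675.7 and 8739.6 (mean 7844 ± 824). Rap1gap, which switches off Rap1, a GTPase of adhesion, had 2033.3, 1151.2 and 2024.5, so pool 2 was 1.77-fold below pool 1 (limma, adjusted p = 0.96). Rap1gds1, an exchange protein and chaperone of several small GTPases, had 2098.7, 1714 and 1684. Rap1a itself had 258, 227.4 and 198 and 206.7, 217.7 and 196.3 by its probe sets. Rap2b was lowest in pool 2 by both (380.4, 314.9 and 430.3, and 224.7, 131.7 and 250.6), and Rap2a had 137.5, 173 and 167.1.

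**Figure D3:**
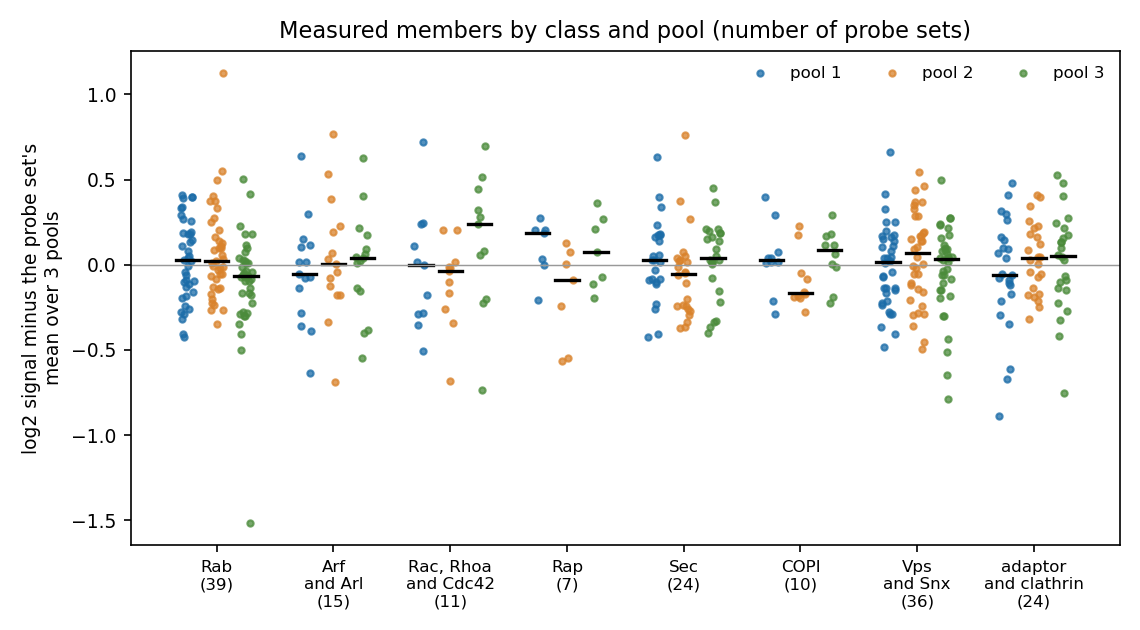
Log2 signal of each measured member minus its mean over the 3 pools (y axis), by class and pool, with 1 point per probe set and a black bar at the median. Ran, with 1 probe set, is left out. Most points lie within 0.5 of their mean, and the COPI bar is lowest in pool 2.

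Coat genes of the early secretory route were mostly lowest in pool 2. Of 10 measured COPI probe sets 6 were lowest there, and of 7 for the COPII coat 5, together 11 of 17 (64.7%), beside 33.4% of all measured probe sets. Grouping both coats was chosen after their values were seen, so this is a description with no test. The median SD of the 17 was 0.188 (0.186 for COPI and 0.222 for the COPII coat), beside 0.207 for all probe sets in the brightest bin of signal. Over 2-fold apart, with signals under the floor raised to it, were 0 of 17, beside 13.2% of all. That share was not matched for mean signal, and dimmer probe sets had larger SDs. In pool 2 all 10 lens markers were lowest and 6 of 8 photoreceptor markers highest, and their part in the coat signals was not tested.

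In the COPI coat, Copa (alpha subunit) had 3353.8, 2796.2 and 3447.1 and Cope (epsilon subunit) 2306.4, 1551.8 and 1865.8. Copg1 (gamma subunit) had 1114.7, 964.8 and 1251.5 by one probe set and 1014.1, 882.1 and 1130.1 by the other, with the same order and ranges of 1.30-fold and 1.28-fold. Not every subunit followed. Copb1 (beta subunit) was highest in pool 2 at 716, 802.5 and 622.7, and Copz1 (zeta subunit) lowest in pool 1 at 1365.8, 1491.7 and 1934.6. Copb2 (beta prime subunit) read 1965.4, 1714.1 and 2072.7 by an r-class and 370.8, 530.4 and 473.7 by an f-class probe set, so they differed on both the highest and the lowest pool. Copz2 was flat at 253.6, 238.8 and 247.8, while the second Copz1 probe set lay under the floor in pools 2 and 3 (185.8, 108.9 and 69.8).

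In the COPII coat, Sec16a, which marks the exit sites, had 2326.8, 1601.6 and 2343.7, and Sec24c, a cargo-binding subunit, 1413.9, 862.2 and 1139.2. Sec31a of the outer cage had 1358.2, 869 and 924, whereas its partner Sec13, shared with the nuclear pore, was nearly flat at 1507, 1448.7 and 1519.6. The inner subunit Sec23a had 2102, 2132 and 2450.9 by one probe set and 905.7, 755.5 and 1025.9 by the other, and Sec23b 926.1, 905.8 and 846.3. The widest of these ranges was the 1.64-fold of Sec24c (limma, adjusted p = 0.99). A second Sec23b probe set read 33.3, 169.2 and 71.3, over the floor only in pool 2, and was not measured. Sec23ip, a Sec23 partner, read 249.8, 184.8 and 252.2.

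The genes of entry into the endoplasmic reticulum had no common order of pools. Sec11a, a catalytic subunit of signal peptidase, was high in pool 2 alone, at 556.9, 1267 and 590.8, a 2.28-fold range (limma, adjusted p = 0.72). Its relative Sec11c had 503.5, 386 and 449.1, lowest in pool 2. Sec61b of the translocon was highest in pool 3, at 1602.8, 2055.2 and 2908 (limma, adjusted p = 0.99). Sec61a1, the channel subunit, was lowest in pool 2 by one probe set (3158.3, 2221.6 and 3140.6) and lowest in pool 1 by the other (810, 885 and 893), and Sec61a2 had 1168.7, 1081.3 and 897.7. The 3 probe sets of Sec62 did not share an order (482.2, 557.5 and 368, 464.8, 590.7 and 344.6, and 375.6, 474.1 and 510.9), and Sec63 had 169.9, 178.8 and 192.4.

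The other Sec symbols were a SNARE and lipid-binding proteins. Sec22b, a SNARE between the endoplasmic reticulum and Golgi, was flat at 1049.8, 1085.9 and 1083.2 by its stronger probe set, and the other read 375.8, 450.1 and 505.8. Sec14l1, of the lipid-binding Sec14 family, had 1956.9, 1406.9 and 1664.8 and, by a second probe set, 675.6, 360.9 and 337.5, a range just over 2-fold. Both were highest in pool 1. Sec14l2 was highest in pool 3 by both (711.1, 708.4 and 885.6, and 251.3, 227.1 and 350.9).

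**Figure D4:**
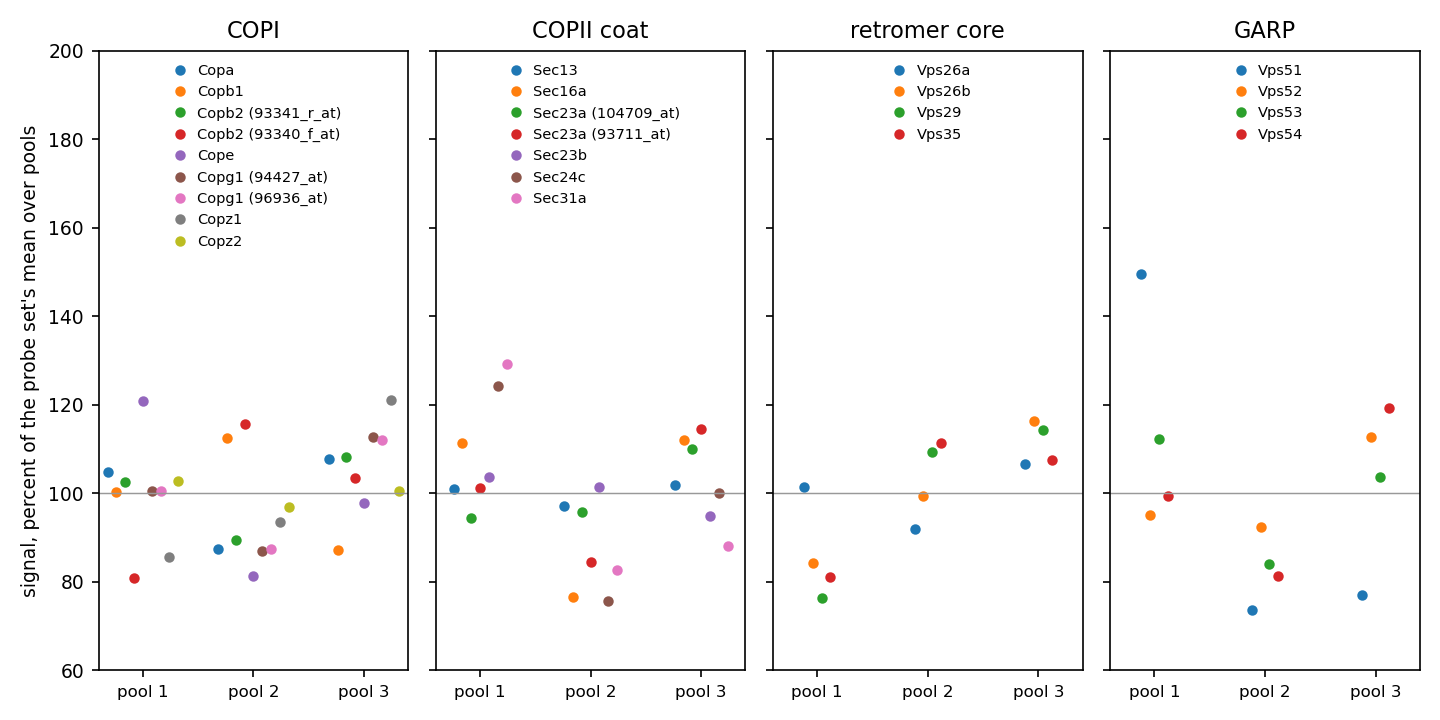
Signal in each pool as a percentage of the probe set's mean over the 3 pools (y axis), for members above the floor in all pools that belong to 4 complexes, 1 point per probe set and array. The 4 GARP genes are lowest in pool 2, as are most COPI and COPII points, while 3 of 4 retromer genes are lowest in pool 1.

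Vps and Snx genes had 43 probe sets of 34 genes, 36 of them measured, with a median SD of 0.249. The retromer core, which retrieves receptors from endosomes, was lowest in pool 1 for 3 of 4 genes, beside 34.8% of all measured probe sets. Pool 1 was also lowest for 6 of 8 photoreceptor markers, whose part here was not tested. Vps35 had 2353.8, 3232.8 and 3115.1, Vps29 1101.5, 1577.6 and 1649.4, and Vps26b 693.8, 818.8 and 959.1. Vps26a had 702.4, 635.5 and 738.2 and did not follow. Vps35 and Vps29 thus read 1.37-fold and 1.5-fold higher in their highest pool than in pool 1 (limma, adjusted p of 0.99 for both). A second Vps35 probe set was under the floor on all arrays. Vps26c, of the related retriever complex, had 469.1, 427 and 597.2 by one probe set and 314.5, 539.6 and 428.3 by the other, of the f class.

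GARP, which tethers endosomal vesicles at the trans-Golgi, was lowest in pool 2 for all 4 genes. Vps51 had 526.8, 259.4 and 271, a 2.03-fold range set by pool 1. Vps53 had 1310.8, 982.8 and 1212.9, Vps54 had 969.7, 792.1 and 1163.2, and Vps52 was nearest to flat at 719.8, 699.8 and 853.5. The highest pool was pool 1 for Vps51 and Vps53 and pool 3 for the others. Each complex was picked out after the values were seen, none of its genes passed the test (lowest adjusted p of 0.99, limma), and pool 2 was lowest for 33.4% of all measured probe sets.

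The ESCRT and fusion genes varied less than 2-fold. Vps28 of ESCRT-I, which sorts ubiquitinated receptors into lysosomes, had 3230.2, 3779.4 and 3659.5 (mean 3556 ± 289). Vps37b (896.3, 785 and 716.9) and Vps37c (1107.6, 787.1 and 1027.8) belong to the same complex and did not share its order. The ATPase Vps4a, which takes ESCRT filaments apart, had 1412.4, 1315.4 and 1110.5, and its paralog Vps4b, lowest in pool 1, had 295.9, 559.7 and 424.5. Vps16 and Vps41, of lysosomal tethers, had 402.7, 307.5 and 314.1 and 744.8, 971.7 and 893.1. Vps45, a partner of endosomal SNAREs, had 500, 297.7 and 495.2, with a second probe set above the floor in pool 3 alone. Vps72 (1906.9, 1245.6 and 1485.5) carries the name and is a chromatin protein.

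Sorting nexins, which bind phosphoinositides on endosomes, had 17 measured probe sets, of which 10 were highest in pool 2 (58.8%, beside 33.7% of all measured probe sets). This grouping was picked out after its values were seen and got no test. The same pool had 6 of 8 photoreceptor markers highest and all 10 lens markers lowest, and their part here was not tested. Snx3, a retromer partner, had 3714.3, 3988.1 and 3185.9. Snx17, the cargo adaptor of retriever, gave 385.5, 523.4 and 229.2 by one probe set and 251.4, 336.1 and 170.9 by the other, with pool 2 highest and pool 3 lowest in both. The ranges were 2.28-fold and 1.97-fold (limma, adjusted p of 0.99 for both). Snx21 was low in pool 3 alone, at 495.7, 479.5 and 214.7, a 2.31-fold range (limma, adjusted p = 0.83).

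Other nexins with pool 2 highest were Snx10 (1267.4, 1618.7 and 1396.5), which acts on the endolysosome, Snx6 (972.2, 1350.3 and 1252.5) of the retromer family, and Snx9 (824.3, 1175.5 and 925.8), which joins endocytic scission. Snx14 (419.4, 561.9 and 417.2) and Snx13 (253.4, 299.7 and 283.8) had the same highest pool. Snx1 was highest in pool 3 (926.7, 1022.9 and 1147.2), and Snx4 was highest in pool 1 (1343.6, 1171 and 1146.8). Snx2 was steady by one probe set (1389.5, 1302.4 and 1369.3) and highest in pool 2 by another (529.4, 613.7 and 361.9), while its last one was under the floor throughout. The probe sets of Snx12 ran in opposite orders (537.8, 454.3 and 536.2, and 310.8, 485.3 and 364.2). Those of Snx5 (256.2, 251.7 and 185.9, and 180.9, 135.7 and 262.6) differed on the highest and the lowest pool.

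Adaptor and clathrin genes had 28 probe sets of 20 genes, 24 of them measured, with a median SD of 0.243. Cltc, the clathrin heavy chain, had 4954.9, 5312.3 and 6628 (mean 5632 ± 881), the light chain Clta 1841.5, 1767.8 and 2261.9, and the other light chain Cltb 942.8, 836.5 and 575.1. Clta and Cltb were therefore highest in different pools, with ranges of 1.28-fold and 1.64-fold. A second Clta probe set had 227.8, 311.9 and 306.

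In AP-2, the endocytic adaptor, Ap2m1 (mu subunit) read 9589.9, 10022.5 and 11723.8 (mean 10445 ± 1128). A second Ap2m1 probe set, of the r class, had pool 1 highest at 311.9, 193.2 and 185.6. Ap2b1 (beta subunit) had 429.9, 411.1 and 192.3, a 2.24-fold range with pool 3 lowest (limma, adjusted p = 0.98). Ap2a2 (an alpha subunit) was highest in pool 3 at 3365.2, 3422.9 and 5154.3 by one probe set and had 1076.7, 1186.3 and 1183 by the other, and Ap2a1 had 334.9, 494 and 467.6. No pool was highest for all of these subunits, and the readings of Ap2m1 differed between themselves.

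AP-1, which sorts at the trans-Golgi and endosomes, held the member with the largest SD after the Rab33b probe set. Ap1s1 (sigma subunit) had 462.7, 1137.4 and 1195.2, so pools 2 and 3 were alike and pool 1 was 2.58-fold below pool 3 (limma, adjusted p = 0.56, and 0.12 to 1.0 over the settings). Ap1b1 (beta subunit) had 3026.4, 2169.7 and 3026.2, but a second probe set had 127.7, 206.7 and 281. Ap1m1 (mu subunit) was steady at 2132.8, 2073.8 and 1893.6 and at 559.4, 564.2 and 622.9, with an SD of 0.090 and 0.086 on the log2 scale. Ap1g1 (gamma subunit) had 777.6, 623.6 and 719.1 and 236.2, 246.8 and 256.3, and Ap1g2 was under the floor in pool 2 (168.9, 86.3 and 132.2). Ap1ar, an AP-1 partner, had 1499, 1635.7 and 1115.5.

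AP-3, of lysosomes and related organelles such as melanosomes, had 5 measured genes. Ap3m1 (mu subunit) had 239.7, 501.7 and 461.5, a 2.09-fold range with pool 1 lowest (limma, adjusted p = 0.99). Ap3d1 (delta subunit) had 1993.4, 1934.9 and 1700, Ap3b1 (beta subunit) 1392.5, 942.7 and 1072, Ap3s1 1276.3, 1641.2 and 1239.7 and Ap3s2 345.1, 380.5 and 287.1. No pool was highest for all of them.

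Where a gene had 2 measured probe sets, these often named different pools. Of 30 such member genes, 9 (30.0%) had the same highest pool by both and 7 (23.3%) also the same lowest. Over all 948 genes with 2 measured probe sets the shares were 36.7% and 20.7%. The 7 were Arf6, Copg1, Rab10, Rab33b, Rap2b, Sec14l2 and Snx17, and Rab14 did the same with 3 probe sets. In every other member gene with several measured probe sets, these differed on the highest or the lowest pool. For member genes with 1 measured probe set, the order of pools rests on 1 reading.

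Partners outside the naming rule were followed through 5 lists, in which 0 probe sets passed the test (limma). Of 18 factors that prenylate, recycle or carry GTPases, 10 had a probe set and all 10 were measured, with a median SD of 0.212. Unc119, the carrier that Arl3 unloads, had 11518.8, 12304.4 and 12159.9, Rabac1, a Rab acceptor of the Golgi, 4150.3, 5088.8 and 5608.3, and Gdi2, which extracts Rabs from membranes, 2927.1, 2903.9 and 3750.5. The widest was Fntb, the farnesyltransferase beta subunit, at 504.3, 386.7 and 291.6, followed by Rabggta, of the enzyme that prenylates Rabs, at 613.9, 475.9 and 678.8, and Icmt, which methylates prenylated proteins, at 346.1, 302.8 and 416.8.

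Exchange factors and GTPase-activating proteins leaned to pool 1. Of 33 measured probe sets 21 (63.6%) were highest there, beside 34.1% of all measured ones. The median over probe sets of the log2 difference, pool 1 less pool 2, was 0.40, beside -0.01 for all. The 33 came from 27 genes, so some genes count more than once, and the lean got no test. At an unadjusted p under 0.05 there were 3 of 33 (9.09%), beside 5.34% of all measured probe sets. Arfgef1, which activates Golgi Arfs, had 3294.3, 2127.4 and 3091.2, and Ranbp1, a partner of Ran, 997.4, 1278.7 and 1391.5. Arfgap2, which switches off Arf1 on COPI vesicles, had 1599.3, 1679.4 and 733.1, a 2.29-fold range with pool 3 lowest (limma, adjusted p = 0.63). Tiam1, a Rac activator, had 563.5, 226.3 and 243.5, high in pool 1 alone, and 343.5, 271 and 271.4 by a second probe set, with the same highest pool. Sipa1, a Rap inactivator, had 104.8, 286.4 and 315.3, low there, and its second probe set was under the floor throughout. Blood markers were also highest in pool 1, and their part in the list's lean was not tested.

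The effectors, SNAREs and further coat genes had median SDs of 0.239, 0.276 and 0.206 over 18, 41 and 46 measured probe sets. Among effectors, Pak2, a kinase of Rac and Cdc42, had 1399, 1051.2 and 1638.8 and Rhpn1, a partner of Rhoa, 875.7, 820.4 and 789.4. Rabep1, the partner of Rab5, had 514.3, 232.5 and 256.2, Pak3 259.6, 557.3 and 379.3, and the Rhoa-bound formin Diaph1 215.5, 111.2 and 218.7. Further probe sets of Rabep1, Diaph1 and Pak2 mostly put other pools highest. Rabep1 also had 277.5, 465.8 and 356.4 and 250.6, 203 and 291.7, so its 3 readings each named another pool. Diaph1 lay under the floor in pool 2 by the reading above, and its other probe sets had 688.4, 930.8 and 751.4 and 379.5, 393.6 and 463.1. Pak2 had 969.1, 852.4 and 873.7 and 649.7, 688.8 and 673.9 by its other probe sets.

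Among SNAREs and fusion factors, Snap25 of the synaptic membrane had 10858, 7535.1 and 9048.1, the vesicle SNARE Vamp2 6065.4, 4862.1 and 3502.7 by one probe set and 610.4, 738.2 and 582.6 by another, and Napa, which takes SNARE complexes apart, 1748.8, 1922.1 and 1762.1. The widest were near the floor: Vamp8, a SNARE of late endosomes, exceeded it only in pool 2 by one f-class probe set (47.7, 294.7 and 32) and was steadier by another (766.5, 713.2 and 900.1), and Stx8 was under it in pool 3 (286, 240 and 29.6). Stxbp2, a partner of syntaxins, had 258.9, 257.8 and 129.8 and, by a second probe set, 406.5, 251.8 and 248.6, both with pool 1 highest and pool 3 lowest.

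From the further coat list, the membrane-bending protein Bin1 had 5117.8, 5229.8 and 4550.8 and, by a second probe set, 4201.7, 3980.1 and 3603. Dnm1, the neuronal dynamin, was highest in pool 1 by both of its probe sets (5830, 4278.9 and 4456.9, and 5043.3, 3901.4 and 4483.1), as was Epn1, an endocytic clathrin adaptor (4449.2, 3456.8 and 3905.7). Sar1b, the GTPase that starts the COPII coat, had 225.7, 967.1 and 500.7 by an r-class probe set. That was a 4.29-fold range with pool 2 highest (limma, adjusted p = 0.26), while the COPII subunits were mostly lowest in that pool. A second Sar1b probe set, of the f class, had 485.3, 477.6 and 932.4. It put pool 3 highest and pool 2 lowest, so the contrast with the COPII subunits rests on the r-class probe set alone. Bcap29, a sorting factor of the endoplasmic reticulum, had 218.6, 562 and 391.7, also highest in pool 2, and Gga1, a trans-Golgi adaptor, 421.7, 185 and 364, lowest there.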

How the data were processed

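Retinal RNA of 3 pools of Rp1-/- mice was measured on 3 Affymetrix U74Av2 arrays, per the labels. The values are linear signal intensity per probe set as deposited by the authors, and the 3 arrays had equal trimmed means, so they had been scaled before deposit. Which software made the signals, and how it treated background, is not given in the sources used. The table held 12422 gene probe sets, and probe set symbols were updated through the RefSeq gene table (GRCm38.p6).

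The floor of each array was the 90th percentile of 19 bacterial and yeast control probe sets, and lower signals were set to it. Values were then taken to log2, and the 8327 probe sets whose mean exceeded the mean floor were kept. A limma fit (3.58.1, R 4.3.3) with an intercept alone gave residual variances. These were tested against a robust, intensity-dependent distribution, with Benjamini-Hochberg adjustment over all kept probe sets and a threshold of 0.05. On simulated data the test called 2 of 8127 unchanged probe sets. The precision is limited by the number of arrays.

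The members and lists were chosen with earlier results of these data known. Symbols Rab31 to Rab35 were taken as members and Rab3 with a letter as not. The text names up to 4 genes per class with the highest mean signal and up to 4 with the largest SD, every member over 2-fold apart in a pair of pools, every gene with several probe sets, and a few genes with a known place in photoreceptor traffic. Of the 5 lists of partners it names up to 3 by each measure. Genes named beyond this rule, and the grouping into complexes, were chosen after their values were seen and got no test. Alternatives covered the normalization, floor, filter, variance fit, reading of the member rule and leaving out each pool.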

Additional observations from a re-analysis of the deposited data

How the results depend on the processing

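The count of all measured probe sets that passed the limma test, 18, depended on the settings: it was 11 with a pseudocount of 32 and no floor, 52 with no filter, 6 with an ordinary variance fit, 0 without the intensity trend, and 4 to 40 when a pool was left out (40 without pool 1, 10 without pool 2 and 4 without pool 3). The member count of 0 became 1, in each case the f-class Rab33b probe set, with the floor at the median control (adjusted p = 0.033), with no filter (0.00045) and without pool 1 (0.00015, limma), and was 0 to 1 over the pools left out. Its signal in pool 3 is under the floor, so its size depends on where the floor is set. With the floor at the median control, 15, 16 and 16 members were over 2-fold apart between pools 1 and 2, 1 and 3, and 2 and 3, in place of 6, 10 and 9. More probe sets were measured there, 180 members and 10577 in all, in place of 167 and 8327. The share of all probe sets over 2-fold apart was not computed for this setting, so these counts have no background beside them. When the test was limited to the brightest 25%, 2 and 3 members were over 2-fold apart between pools 1 and 3 and between 2 and 3. Fewer probe sets enter there, 98 members and 3106 in all, and the share over all was not computed either. Of the other recomputed values, 244 kept their direction and side of the threshold or stayed within the limit set for them. No paired analysis was possible because all pools belong to 1 group. With 3 arrays in 1 group and no control genotype, the data give the spread between pools and no effect of Rp1.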
